A study of Bos taurus with 12 samples.

Results

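The miR-148/miR-152 family comprises the mature miRNAs bta-miR-148a, bta-miR-148b and bta-miR-152, and all 3 were found among the 755 mature miRNA names counted in bovine granulosa cells. The members were chosen by name and not by their read counts, though with earlier results of these data known. Each was listed with 1 precursor, so no choice between precursor entries was needed. Granulosa cells, the somatic cells that surround the oocyte and produce estradiol, were obtained from subordinate follicles (SF) and dominant follicles (DF) of estrous-synchronized Simmental heifers, which were slaughtered on day 3 or on day 7 of the cycle, with 3 biological replicates in each of the 4 groups. All heifers had received the same prostaglandin and GnRH analogue treatment. Follicles were classed as SF or DF by diameter alone, the diameter limits were higher at day 7 than at day 3, and the cells were pooled by follicle size. The study counted far fewer DF than SF at each day, and the fewest of all were DF at day 7, with 3 follicles for the 3 libraries. The number of follicles behind each library was not given, but for DF at day 7 it can be only 1 unless a follicle was split. Comparisons with this group may therefore set single follicles against pools. The labels do not tie a replicate to an animal, so the p values measure the spread between these samples.

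A miRNA guides the silencing complex to messenger RNAs through its seed, the bases at its 5′ end, and miRNAs that share a seed can act on the same messenger RNAs. The miR-148/miR-152 family has a common seed and is best known for repressing DNA methyltransferase messenger RNAs, DNMT1 above all. The 3 members therefore form a pool of similar silencing activity in a cell, although each is transcribed from its own locus.

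In the RefSeq annotation of the bovine assembly ARS-UCD2.0, the 3 loci had paralogous neighbours. MIR148B lay within COPZ1 and MIR152 within COPZ2, genes for the zeta subunits of the coatomer that coats transport vesicles. No protein-coding host gene was annotated for MIR148A. The HOXC genes were found near MIR148B, the HOXB genes near MIR152 and the HOXA genes near MIR148A, and a gene of the NFE2 family of transcription factors was close to each of them (NFE2, NFE2L1 and NFE2L3, respectively). A second annotated miRNA gene, MIR148C, whose other name is mir-2957, overlapped MIR152, and bta-miR-2957 had 1 read in all 12 libraries together. The annotated MIR148D, which overlapped MIR148A, was not analysed here.

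Between 160418 and 405129 reads per library were assigned to known miRNAs, and dividing the counts by library size factors gave normalized read counts. A size factor is the median ratio of the counts of a library to their geometric means over all 12 libraries. The comparisons below computed their factors from the libraries compared, so a fold change can differ from the ratio of the normalized counts. The depth allowed a precise count of bta-miR-148a, which ranked 12 of 755 by total reads with 71235 reads, and of bta-miR-148b, which ranked 41 with 10721 reads. The total of bta-miR-152 was 490 reads. A small RNA read covers the whole mature miRNA, so read counts are not divided by length, but the reads of different miRNAs are not a measure of their molar amounts.

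For bta-miR-148a, the most abundant member, the 3 libraries had 5242, 5945 and 5948 normalized counts in SF and 4588, 4625 and 5216 in DF at day 3. At day 7 they had 5754, 5773 and 5979.6 in SF and 6194, 4897 and 7717 in DF. The libraries of the other 3 groups thus lay close together, while those of DF at day 7 spread over the whole range of the SF libraries and beyond. The group means of day 3 were 5712 ± 407 (SD, n = 3) for SF and 4809 ± 352 for DF, and those of day 7 were 5835 ± 125 for SF and 6269 ± 1411 for DF. On average this miRNA made up between 1.97% and 2.27% of the reads of a group. In the order of means, DF at day 7, SF at day 7 and SF at day 3 overlapped with their neighbours. Only DF at day 3, the lowest group, was separated from the next one, by a narrow gap between 5216 and 5242. As shares of library reads these 2 groups overlapped, with 1.75% to 2.29% in DF and 2.01% to 2.25% in SF.

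For bta-miR-148b, the normalized counts were 777, 944 and 938 in SF and 1152, 1215 and 1098 in DF at day 3. At day 7 they were 967, 682 and 702 in SF and 446, 284 and 508 in DF. Every DF library of day 3 was above, and every DF library of day 7 below, every SF library of either day. The order of means ran from DF at day 3, with 1155 ± 58.2 (SD, n = 3), over SF at day 3, with 886 ± 94.5, and SF at day 7, with 783 ± 159, to DF at day 7, with 413 ± 115. The neighbouring SF groups overlapped, and the DF groups stood at opposite ends of the order. In ranks among all miRNAs of a group, bta-miR-148b went from 31 in DF at day 3 to 66 in DF at day 7.

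For bta-miR-152, the normalized counts were 30.3, 20.2 and 28.1 in SF and 54.1, 39.7 and 23.5 in DF at day 3, and 31.2, 19.2 and 16.6 in SF and 69.3, 48.2 and 68.4 in DF at day 7. At day 7 all DF libraries were above all SF libraries, and at day 3 the groups overlapped. The means were 62.0 ± 11.9 (SD, n = 3) for DF of day 7, 39.1 ± 15.3 for DF of day 3, 26.2 ± 5.32 for SF of day 3 and 22.3 ± 7.79 for SF of day 7, and each group overlapped with its neighbour in this order. The raw counts behind these values ranged from 15 to 81 reads. For the library with 15 reads, the exact Poisson 95% interval ran from 8.40 to 24.7 reads, which covers counting error only.

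**Figure D1:**
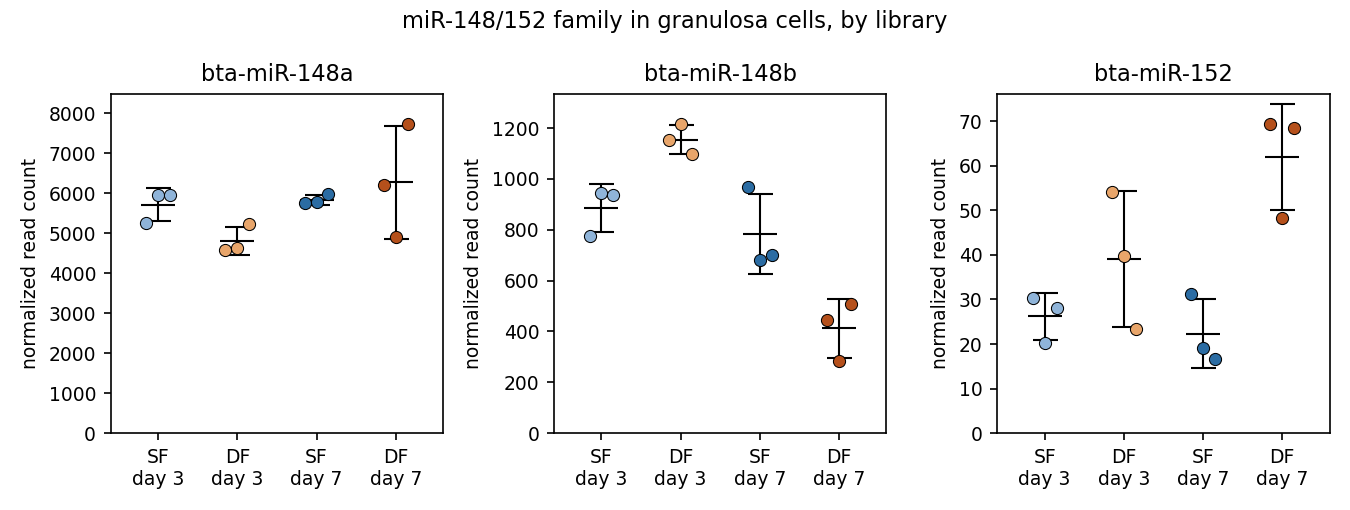
Normalized read counts (y axis, linear from 0) of bta-miR-148a, bta-miR-148b and bta-miR-152 in the 4 groups of granulosa cells (x axis). Each point is a library, the horizontal bar is the group mean and the whiskers are 1 SD (n = 3). The DF libraries of day 7 are the lowest of all for bta-miR-148b, between 284 and 508, and have the highest mean for bta-miR-152.

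The comparison of SF and DF at day 3 asks which miRNAs differ when follicles are recruited and selected. A miRNA was taken as differentially expressed if its log2 fold change was 1 or more in either direction and its unadjusted p was 0.05 or less, at a 10% false discovery rate, in edgeR's quasi-likelihood test over all miRNAs detected in either group. No member of the family was differentially expressed at day 3, against 5.67% of the 335 miRNAs tested (3.88% higher and 1.79% lower in SF). DESeq2 also called 0 members. The unadjusted p value was under 0.05 for 2 members in edgeR and for 1 in DESeq2. In SF against DF, bta-miR-148b had a log2 fold change of -0.43 ± 0.14 (SE, edgeR adjusted p = 0.0472). An adjusted p of at most 0.10 at any fold was reached by 1 of 3 members and by 16.7% of all miRNAs tested. That member, bta-miR-148b, no longer reached it with all 12 libraries in 1 fit (edgeR adjusted p = 0.395), without replicate 1 of SF (0.134) or without replicate 2 of DF (0.137). The value of bta-miR-152 was -0.62 ± 0.29 (SE, edgeR adjusted p = 0.176), with a 95% interval from -1.22 to -0.03. That of bta-miR-148a was 0.20 ± 0.12 (SE, edgeR adjusted p = 0.314), with an interval from -0.05 to 0.45. SF and DF libraries did not overlap for 2 of the 3 members, bta-miR-148a and bta-miR-148b, and for 27.8% of all miRNAs tested. For bta-miR-148a this held in normalized counts and not in shares of library reads.

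The comparison at day 7 addresses selection and dominance, and here bta-miR-148b and bta-miR-152 differed in opposite directions. The abundant bta-miR-148b was higher in SF than in DF by a log2 fold change of 1.00 ± 0.26 (SE, edgeR adjusted p = 0.0151). Its normalized counts, scaled over all 12 libraries, were 967, 682 and 702 against 446, 284 and 508, with a ratio of means of 1.90. The scarce bta-miR-152 was lower in SF, with a log2 fold change of -1.39 ± 0.34 (SE, edgeR adjusted p = 0.0102), or 2.62-fold. Its DF libraries had 81, 29 and 76 raw reads and its SF libraries 35, 19 and 17. For bta-miR-148a the log2 fold change was -0.02 ± 0.20 (SE, edgeR adjusted p = 0.924), with a 95% interval from -0.47 to 0.42. Thus 2 of 3 members were differentially expressed, in a comparison where 33.4% of 350 miRNAs were. A higher level in SF was called for 15.1% of all miRNAs and a lower one for 18.3%. The groups did not overlap for the same 2 members, and for 45.7% of the miRNAs tested. Leukocyte miRNAs summed to between 184 and 705 normalized counts in these SF libraries and to between 783 and 8636 in the DF libraries, and their part in the differences was not tested. In bulk samples, fewer cells of a type and less RNA per cell cannot be told apart.

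The call of bta-miR-148b stood at the fold threshold. Its log2 fold change was 0.93 with TMM normalization, 0.87 with library size alone, 0.84 without replicate 1 of SF and 0.80 without replicate 2 of DF, while the adjusted p in edgeR and DESeq2 lay between 0.00222 and 0.0452 under all alternatives tried. The call of bta-miR-152 was kept in each of them.

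**Figure D2:**
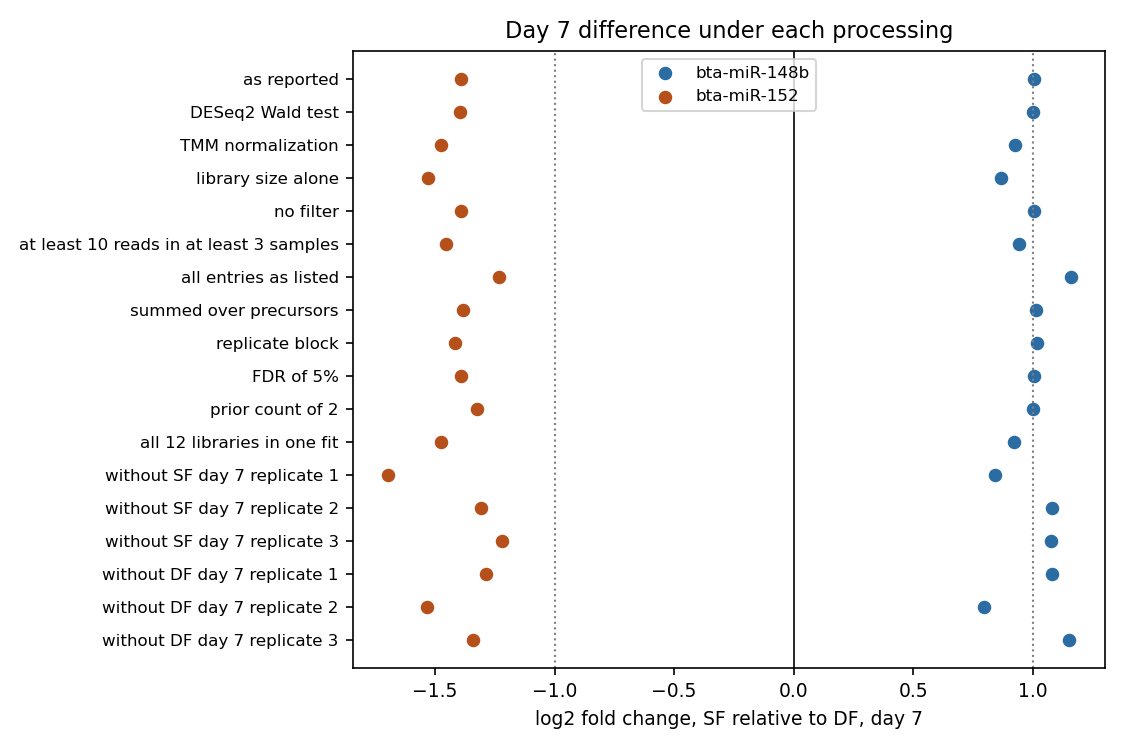
Log2 fold change of SF relative to DF at day 7 (x axis) for bta-miR-148b (blue) and bta-miR-152 (orange) as reported and under each alternative processing (y axis). Each point is a fitted value, and dotted lines mark the fold threshold at 1 in either direction. The points of bta-miR-148b lie on both sides of 1, from 0.80 to 1.16, and those of bta-miR-152 from -1.70 to -1.22 all lie beyond -1.

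The temporal comparison in DF gave the largest log2 fold change of the family among the 4 comparisons. Between day 3 and day 7, bta-miR-148b fell in DF from 1152, 1215 and 1098 to 446, 284 and 508 normalized counts, a log2 fold change of -1.51 ± 0.23 (SE, edgeR adjusted p = 0.000107), or 2.84-fold. Its lowest library of day 3 was above the highest of day 7. In these follicles 40.3% of 360 miRNAs were differentially expressed, with 15.8% lower and 24.4% higher at day 7, and 160 miRNAs had a larger absolute log2 fold change than bta-miR-148b. The log2 fold change of bta-miR-152 was 0.64 ± 0.32 (SE, edgeR adjusted p = 0.128) and that of bta-miR-148a was 0.36 ± 0.19 (SE, edgeR adjusted p = 0.154). Their 95% intervals ran from -0.05 to 1.33 and from -0.06 to 0.78. The libraries of the 2 days were separated for 1 of the 3 members and for 50% of all miRNAs tested.

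Between the days in SF, 0 members passed in edgeR or in DESeq2, and no unadjusted p value was under 0.05 in either. The share of all 337 miRNAs called in edgeR was 0.593%, and the libraries of the 2 days overlapped for each member, as they did for all but 13.9% of the miRNAs tested. The log2 fold changes were 0.05 (95% interval -0.24 to 0.34) for bta-miR-148a, -0.16 (-0.56 to 0.24) for bta-miR-148b and -0.21 (-1.02 to 0.60) for bta-miR-152.

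Whether the difference between SF and DF itself changed from day 3 to day 7 was tested as an interaction over all 12 libraries. For bta-miR-148b the difference moved by 1.30 ± 0.30 on the log2 scale (SE, edgeR adjusted p = 0.00389), from lower in SF at day 3 to higher in SF at day 7. The other members did not pass, with -0.90 ± 0.48 (SE, edgeR adjusted p = 0.213) for bta-miR-152 and -0.35 ± 0.23 (SE, edgeR adjusted p = 0.296) for bta-miR-148a. Without replicate 1 of SF at day 7, the value of bta-miR-152 was -1.23 and passed (edgeR adjusted p = 0.0856). Of all miRNAs tested, 26.5% passed, 12.2% with a positive and 14.3% with a negative value. Since bta-miR-152 was lower in SF than in DF by its mean at both days, with the larger difference at day 7, its values went against those of bta-miR-148b only at day 7.

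**Figure D3:**
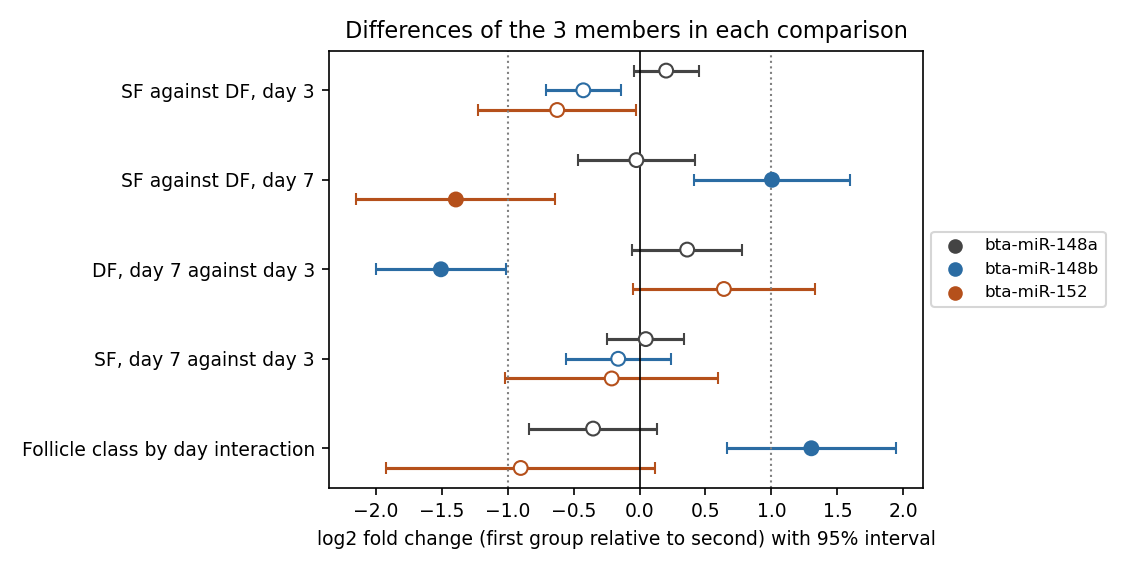
Log2 fold changes (x axis) of the 3 members in the 4 comparisons and in the interaction (y axis). The interaction is the day 7 difference between SF and DF minus the day 3 difference, in a fit of all 12 libraries. Each comparison was fitted on its own 6 libraries, so its plotted values do not subtract exactly to the interaction. Whiskers are approximate 95% intervals, filled points were differentially expressed, open points were not, and dotted lines mark a log2 fold change of 1 in either direction. The filled points are bta-miR-148b at 1.00, -1.51 and 1.30 and bta-miR-152 at -1.39.

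Members that share a seed can also be read as a pool. The normalized counts of the 3 members added up to 6624 ± 498 (SD, n = 3) for SF and 6003 ± 292 for DF at day 3. At day 7 the sums were 6641 ± 148 for SF and 6744 ± 1532 for DF. The DF libraries of day 7 ranged from 5229.6 to 8293 and enclosed all other libraries. As a share of all miRNA reads, the pool was between 2.30% and 2.50% on average in each group.

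The proportions within the pool differed between the groups, and these do not depend on how libraries are scaled. In DF at day 3, bta-miR-148b made up 19.3% ± 1.74 (SD, n = 3) of the reads of the family, and in DF at day 7 it made up 6.07% ± 0.61. The SF groups lay between, with 13.4% ± 0.44 at day 3 and 11.8% ± 2.20 at day 7. The share of bta-miR-148a was 80.0% ± 1.97 in DF at day 3 and 93.0% ± 0.66 in DF at day 7, and that of bta-miR-152 never exceeded 1.03% in a library. The ratio of bta-miR-148a to bta-miR-148b reads was 3.98, 3.81 and 4.75 in DF at day 3. It was 6.74, 6.30 and 6.34 in SF at day 3, 5.95, 8.47 and 8.52 in SF at day 7, and 13.9, 17.2 and 15.2 in DF at day 7. All DF libraries of day 3 were therefore below, and all DF libraries of day 7 above, the 6 SF libraries.

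For each read of bta-miR-152, the DF libraries of day 7 had 6.44, 5.90 and 7.42 reads of bta-miR-148b. In the other 9 libraries this ratio lay between 21.3 and 46.8, and its means were 35.3 ± 10.7 (SD, n = 3) for SF of day 3, 32.9 ± 12.9 for DF of day 3 and 36.3 ± 5.72 for SF of day 7. The first 3 groups overlapped with each other, and DF at day 7 was apart from all of them. These ratios are given as a description, with no test.

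**Figure D4:**
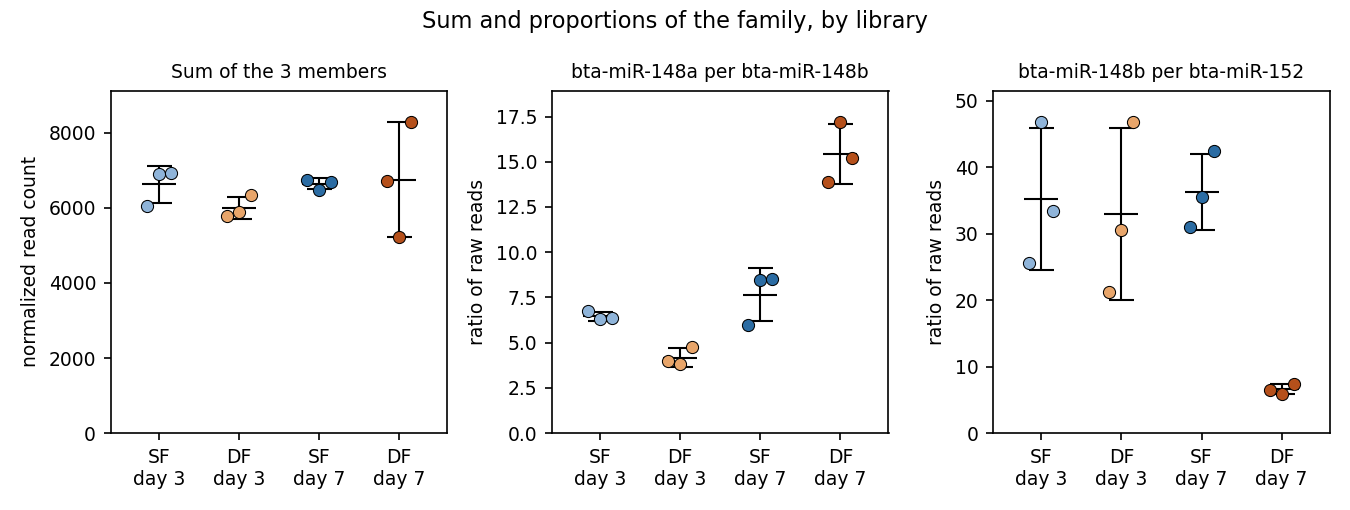
The summed normalized counts of the 3 members (left), the ratio of bta-miR-148a to bta-miR-148b raw reads (middle) and the ratio of bta-miR-148b to bta-miR-152 raw reads (right) by group (x axis). Points are libraries, horizontal bars are means and whiskers are 1 SD (n = 3), and all y axes start at 0. The sums overlap between SF and DF at day 7, whereas the 3 DF libraries of day 7 lie at the top of the middle panel, from 13.9 to 17.2, and at the bottom of the right panel, from 5.90 to 7.42.

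Other miRNAs with a profile like that of each member were sought over the 12 libraries, among the miRNAs with a mean of at least 10 reads, by Pearson's r of the log2 normalized counts. The libraries share their depth and their groups, so r is a description. The profile most like that of bta-miR-148b belonged to bta-miR-450b (r = 0.97), followed by bta-miR-202 (r = 0.97), a miRNA of the gonads, bta-miR-99b (r = 0.96), bta-miR-3431 (r = 0.95) and bta-miR-374a (r = 0.94). In each of these 5 the mean was highest in DF at day 3 and lowest in DF at day 7, from 741 ± 36.0 to 194 ± 73.1 normalized counts (SD, n = 3) for bta-miR-450b and from 3325 ± 302 to 697 ± 309 for bta-miR-202. The least like were bta-miR-221 (r = -0.97), bta-miR-146b (r = -0.96) and bta-miR-23a (r = -0.96), each with its lowest mean in DF at day 3 and its highest in DF at day 7.

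**Figure D5:**
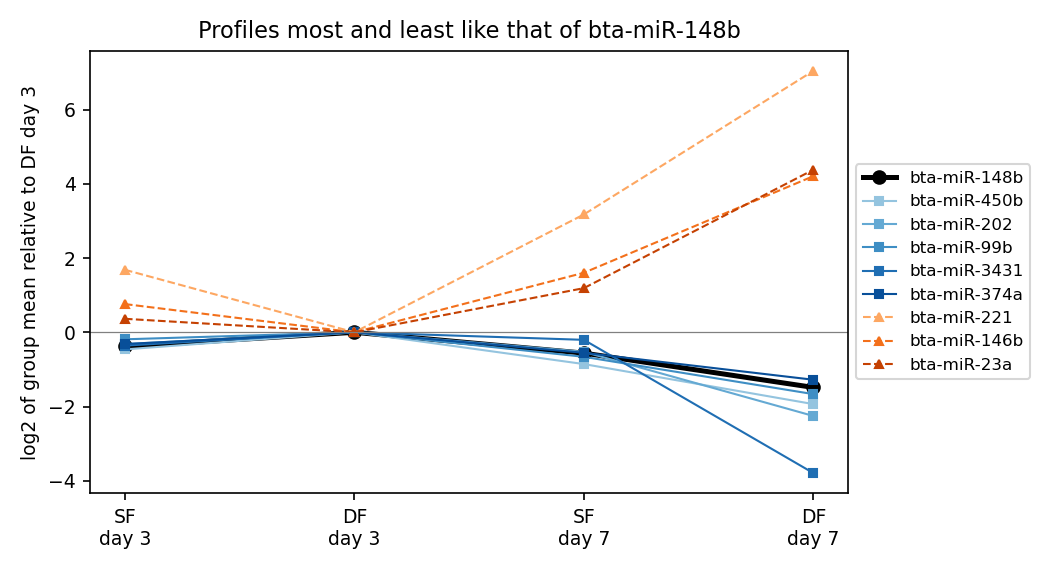
Group means of normalized counts as log2 values relative to DF at day 3 (y axis) in the 4 groups (x axis) for bta-miR-148b (black), the 5 miRNAs with the most like profile (solid, squares) and the 3 with the least like profile (dashed, triangles). Lines join the means of a miRNA and are no time course. The solid lines end under 0 and the dashed lines above 0 in DF at day 7.

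The profiles of the other members had weaker likenesses. For bta-miR-152 the highest values were those of bta-miR-22-3p (r = 0.78), with 5617 ± 523 normalized counts (SD, n = 3) in DF at day 7 against 2775 ± 348 in DF at day 3, bta-miR-421 (r = 0.77), bta-miR-6123 (r = 0.75), bta-miR-103 (r = 0.75) and bta-miR-184 (r = 0.74), and the least like were bta-miR-361 (r = -0.90), bta-miR-320a (r = -0.85) and bta-miR-335 (r = -0.82). For bta-miR-148a they were bta-miR-449a (r = 0.78), bta-miR-30a-5p (r = 0.73), bta-miR-132 (r = 0.70), bta-miR-101 (r = 0.70) and bta-miR-30f (r = 0.70), and the least like were bta-miR-15a (r = -0.78), bta-miR-2483-5p (r = -0.70) and bta-miR-194 (r = -0.68). Between the members themselves, r was -0.33 for bta-miR-148a and bta-miR-148b, 0.07 for bta-miR-148a and bta-miR-152 and -0.40 for bta-miR-148b and bta-miR-152, so none had a profile close to another.

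Other miRNAs known to act on DNA methyltransferase messenger RNAs were set beside the family as a list of 8 names, namely the miR-29 members, which target DNMT3A and DNMT3B, and bta-miR-101, bta-miR-143, bta-miR-185 and bta-miR-342. In DF, 6 of the 8 were higher at day 7 than at day 3 and 0 lower, where 24.4% of all miRNAs were called higher. The median log2 fold change was 2.09 in the list and 0.05 over all miRNAs tested. The list was chosen with earlier results of these data known, and the study had already reported the miR-29 members as higher at day 7. The contrast with all miRNAs is therefore a description. The best counted of them were bta-miR-143, which rose by a log2 fold change of 1.84 ± 0.28 (SE, edgeR adjusted p = 0.000117), and bta-miR-29a, which rose from 148 ± 20.1 to 782 ± 90.4 normalized counts (SD, n = 3). Of these, bta-miR-143 is also a marker of smooth muscle and stroma and made up most reads of the list. In the same DF libraries of day 7 the stroma and leukocyte markers were higher as well, with sums of 6723 to 14191 against 2206 to 3894 and of 783 to 8636 against 116 to 162 at day 3, and their part in the rise was not tested. The other 4 that rose, bta-miR-29b, bta-miR-29c, bta-miR-29d and bta-miR-185, each had at most 163 reads in all libraries together. In contrast bta-miR-101 and bta-miR-342, with log2 fold changes of 0.37 and 0.26, did not pass. Between SF and DF at day 7, 4 of the 8 were lower in SF, where 18.3% of all miRNAs were called lower, and 0 higher, with a median of -1.34 against -0.05. At day 3, and between the days in SF, 0 of the 7 that were tested passed. The sign of bta-miR-152 at day 7 was that of these 4, and the sign of bta-miR-148b was the opposite.

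The miRNAs of the Hox clusters, part of which share a chromosomal neighbourhood with the family, were counted in the same way. Only bta-miR-10a is placed beside a member here. The positions of the other names were not looked up, so their calls are no results about the loci of the family. Of 5 names, 4 were tested between the days in DF, and 2 of them, bta-miR-10b and bta-miR-196a, were lower at day 7, as were 15.8% of all miRNAs. At day 7, 3 names were tested between SF and DF, and the same 2 were higher in SF, as were 15.1% of all miRNAs. No name was called in the other direction in these comparisons. Of these 2, bta-miR-10b, one of the most abundant miRNAs of these cells, changed in DF by a log2 fold change of -1.18 ± 0.20 (SE, edgeR adjusted p = 0.000239). The other, bta-miR-196a, had 24 reads in all and 0 in the DF libraries of day 7. The value of bta-miR-10a, a miRNA of the HOXB cluster and so a neighbour of MIR152, was -0.14 ± 0.23 (SE, edgeR adjusted p = 0.630) between the days in DF.

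The granulosa identity of the libraries could be checked only on miRNAs. All 4 granulosa-associated names, miR-202, miR-224, miR-378 and miR-383, were listed, with a summed level from 3297 to 4478 normalized counts in the libraries of the other groups and from 1979 to 2384 in DF at day 7, where bta-miR-383 had 0 reads. In DF, 2 of the 4, bta-miR-202 and bta-miR-224, were lower at day 7 than at day 3, where 15.8% of all miRNAs were called lower. The value of bta-miR-378 in DF was 0.88 (edgeR adjusted p = 0.0142), in the other direction and under the fold threshold. At day 7, 3 of the 4 were higher in SF than in DF, where 15.1% of all miRNAs were called higher. Of these 3, bta-miR-383 had only 21 reads in all libraries together. Leukocyte miRNAs (miR-142, miR-150 and miR-223, 4 of 4 listed names with reads) summed to between 108 and 705 normalized counts in the 9 libraries of the other groups and to 783, 3110 and 8636 in those of DF at day 7. In DF all 4 were higher at day 7 than at day 3, where 24.4% of all miRNAs were called higher. Of the 4, bta-miR-142-3p and bta-miR-223 had only 11 and 28 reads in all libraries together. The smooth muscle and stroma miRNAs were bta-miR-143 and bta-miR-145, 2 of 2 with reads. They summed to between 2206 and 4909 in the other groups and to between 6723 and 14191 in DF at day 7. Both were higher there than in DF at day 3, against the same 24.4% of all miRNAs.

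The erythrocyte names miR-451, miR-144 and miR-486 summed to between 438 and 515 normalized counts in SF and to between 808 and 2322 in DF at day 7, without overlap, and to between 315 and 1642 at day 3. At day 7 both of the erythrocyte names tested were lower in SF, with log2 fold changes of -1.76 for bta-miR-451 and -1.56 for bta-miR-486. At that day 18.3% of all miRNAs were called lower in SF. The endothelial bta-miR-126 arms summed to between 61.6 and 220.5 in the other groups and to between 130.0 and 160.2 in DF at day 7. In DF, 1 of the 2 arms was higher at day 7 than at day 3, where 24.4% of all miRNAs were called higher. The 5 epithelial names of the miR-200 family had at most 21.5 in any library, and 1 of them, bta-miR-141, was lower in SF than in DF at day 3. This miRNA had 26 reads in all and its SF and DF libraries overlapped. In that comparison 1.79% of all miRNAs were called lower. The part of these other cells in the values of bta-miR-148b and bta-miR-152 in DF at day 7 was not tested. Within DF at day 7, the libraries with leukocyte sums of 783, 3110 and 8636 had 508, 446 and 284 normalized counts of bta-miR-148b and 68.4, 69.3 and 48.2 of bta-miR-152. All 3 members were lowest in the library with the highest leukocyte sum, bta-miR-148a with 4897 normalized counts against 6194 and 7717. That library was also the shallowest of all, with 160418 reads and 29 raw reads of bta-miR-152.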

How the data were processed

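Small RNA of 12 granulosa cell samples was sequenced as single reads. The authors called bases with CASAVA 1.8.0 (per the labels), removed adapters with cutadapt, mapped the reads on the UMD 3.1 bovine assembly and counted known miRNAs of miRBase with miRDeep2. The deposited files hold raw read counts per pair of mature miRNA and precursor, without normalization. For a mature name with several entries, the entry with most reads was used. The members and lists were chosen with earlier results of these data known.

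Groups were compared in R 4.3.3 with edgeR 4.0.16 (quasi-likelihood F test, two-sided, median-of-ratios factors, prior count 0.125, Benjamini-Hochberg adjustment over all miRNAs tested), on the 6 libraries concerned and miRNAs read at least 1 time in 2 or more of 3 replicates of either group. The study used DESeq2, which here (version 1.42.0) is an alternative. Standard errors are the log2 fold change divided by the square root of F, and 95% intervals follow from them. Likeness used log2(normalized count + 1). The named miRNAs were the 3 members, the 5 most and 3 least like each member, and the fixed lists. The procedure was tested on simulated counts. Replicate libraries differed by more than counting error, the chi-square statistic being 10.2 to 128 times its degrees of freedom. A count of 0 allows a share of up to 0.000741% to 0.00187% of a library (3 reads, counting error only).

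Replicate numbers carry over between groups in the labels. Deviations from group means correlated between same-numbered SF and DF libraries of day 7 by 0.13 to 0.18, over 186 miRNAs, so these numbers were taken as a pairing hinted at by the data, and a fit with the replicate number as a block was made as an alternative. Further alternatives were TMM and library-size scaling, other filters, all entries or summed entries, a prior count of 2, a stricter false discovery rate (5%), all 12 libraries in 1 fit, and leaving out each library in turn.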

Additional observations from a re-analysis of the deposited data

Results flagged for a closer look

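The difference between SF and DF in bta-miR-148b was not the same at the 2 days. The interaction of follicle class and day had a log2 value of 1.30 ± 0.30 (SE, edgeR adjusted p = 0.00389), with a log2 fold change of SF against DF of -0.43 at day 3 and 1.00 at day 7. At each day all 3 SF libraries were on the same side of all 3 DF libraries. Such a separation was found for 27.8% of all miRNAs tested at day 3 and for 45.7% at day 7. The day 3 difference was not called, and the day 7 call stood at the fold threshold and was lost under some alternatives. Over its alternatives the interaction lay between 1.11 and 1.47 on the log2 scale, with adjusted p values between 0.000245 and 0.0145.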

How the results depend on the processing

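Among the alternatives, the stricter false discovery rate reused the main fit, and the prior count of 2 left the p values of the members unchanged. Many of the values also belong to differences that were not called. Of 270 log2 fold changes of the members under the alternatives, 258 kept their direction and their call, which takes fold, p and false discovery rate together. The adjusted p alone crossed 0.10 in some of these, for bta-miR-148b at day 3 and, in DF between the days, for bta-miR-152 (0.0994 with the replicate block against 0.128) and bta-miR-148a (0.0689 with all 12 libraries in 1 fit against 0.154), among others. At day 7, the call of bta-miR-148b (1.00) was lost with TMM normalization (0.93), library size alone (0.87), at least 10 reads in at least 3 samples (0.94) and all 12 libraries in 1 fit (0.92), and it lay between 0.80 and 1.15 with a library left out. It was lost without replicate 1 of SF and without replicate 2 of DF. Library size alone moved the median of all miRNAs by -0.15 in this comparison, by -0.14 in DF and by -0.14 in SF between the days. The value of bta-miR-148a, near 0, changed sign at day 7 with all entries as listed (0.14) and with a library left out (-0.17 to 0.13), and in SF between the days with library size alone (-0.10) and with a library left out (-0.0453 to 0.0731). The interaction of bta-miR-152 passed without replicate 1 of SF at day 7 (-1.23) and otherwise lay between -1.15 and -0.62 with a library left out.

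The number of differentially expressed miRNAs at day 3 (19) was 11 with DESeq2, 12 with at least 10 reads in at least 3 samples, 8 in the fit of all 12 libraries and 10 to 21 with a library left out, the 10 without replicate 1 of SF. In DF between the days it was 92 with at least 10 reads in at least 3 samples. In SF between the days (2) it was 5 with DESeq2, 12 without a filter, 0 with at least 10 reads in at least 3 samples, 10 with all entries as listed, 7 with the replicate block, 1 in the fit of all 12 libraries and 0 to 20 with a library left out. The calls in SF were 1 of 2 higher at day 7, against 2 of 3 with TMM and 1 of 3 with library size. The cause of these differences was not tested.

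The replicate block changed no call of a member. At day 7 it gave 1.02 for bta-miR-148b, -1.42 for bta-miR-152 and 115 differentially expressed miRNAs in place of 117. Same-numbered libraries correlated by -0.14 to -0.03 at day 3, by -0.12 to 0.03 between the days in DF and by -0.08 to 0.11 in SF, so no pairing was seen there. Normalized by library size, the mean of bta-miR-148a was 5408 in DF at day 3 and 5544 in SF at day 7, and that of bta-miR-148b in DF at day 3 was 1293, or 1216 with TMM. With library size, the SF and DF libraries of day 3 overlapped for bta-miR-148a. With 15 to 81 reads per library, bta-miR-152 was the member limited most by depth.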

Other observations

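The spread between replicates was above the counting error in each group for the 2 abundant members, by an amount that varied. For bta-miR-152 it was close to the counting error in part of the groups. In DF at day 7 the coefficient of variation of normalized counts was 22.5% for bta-miR-148a and 27.9% for bta-miR-148b, where counting alone gives 1.26% and 4.89%. The excess was smaller for bta-miR-148a in SF at day 7 (2.15% against 1.28%) and for bta-miR-148b in DF at day 3 (5.04% against 2.54%). For bta-miR-152 it was 20.3% in SF at day 3, where counting alone gives 20.4%, and 39.2% in DF at day 3, where counting alone gives 13.7%.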
